A study of Mus musculus with 2 samples.

Results

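The Ikaros family loci examined here are 3 windows of the mouse genome (build mm9), one around each of the paralogous genes Ikzf1, Ikzf2 and Ikzf3. Their members are all deposited regions of H3K4me1 (histone H3 monomethylated at lysine 4) that overlap a window. The rule found 51 regions of the 48130 in the list. The Ikzf1 window runs from 11500000 to 11780000 on chromosome 11 and is 280 kb long. The Ikzf3 window runs from 98260000 to 98480000 on the same chromosome and is 220 kb long. The Ikzf2 window runs from 69500000 to 69850000 on chromosome 1 and is 350 kb long. Membership rests on position alone, so the number, length and spacing of the regions were free to differ between windows.

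The regions come from pre-B cells, the bone marrow precursors that have a heavy chain and have not yet rearranged a light chain. The cells were from B6 (C57BL/6) mice of genotype RAG1-/-, of both sexes and 6 to 14 weeks old, that carried an already rearranged IgM transgene (RAG-/-µ+). Without Rag1 these mice do not rearrange their own antigen receptor genes, so the transgene supplies the heavy chain that brings their cells to the pre-B stage. Both samples, 1 H3K4me1 library and 1 input library made without antibody, came from such cells; the number of mice behind either is not given in the labels. There was no replicate and no group of mice with Rag1, so no difference below has a p-value.

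Ikzf1, Ikzf2 and Ikzf3 encode Ikaros, Helios and Aiolos, zinc finger proteins that bind DNA through fingers near one end and pair with each other through fingers near the other. Ikaros acts throughout lymphocyte development and is a frequent target of deletion in B cell acute lymphoblastic leukaemia. Aiolos is a B lineage protein whose level rises at the pre-B stage, and Helios is best known from T cells, regulatory T cells among them, and from early blood progenitors. H3K4me1 is found at enhancers, whether active or poised, and on the flanks of active promoters.

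The deposited list gives positions on mm9, and no mm9 sequence or gene annotation was used here. The regions are therefore printed by position, and their place in exons, introns or promoters was not analysed here. RefSeq promoter sequences of the GRCm38.p6 build were matched by symbol, which gave 2 for Ikzf1 and none for Ikzf2 or Ikzf3. They are shown because they are the starts of a gene whose window is among the most heavily marked. Each runs from 250 bases before to 50 bases after a transcription start, on the plus strand, and capitals mark CpG dinucleotides. The first lies at chr11:11685675-11685974 and the second at chr11:11689927-11690226 of GRCm38.p6. These positions cannot be set against the mm9 positions of the regions.
Ikzf1 promoter 1: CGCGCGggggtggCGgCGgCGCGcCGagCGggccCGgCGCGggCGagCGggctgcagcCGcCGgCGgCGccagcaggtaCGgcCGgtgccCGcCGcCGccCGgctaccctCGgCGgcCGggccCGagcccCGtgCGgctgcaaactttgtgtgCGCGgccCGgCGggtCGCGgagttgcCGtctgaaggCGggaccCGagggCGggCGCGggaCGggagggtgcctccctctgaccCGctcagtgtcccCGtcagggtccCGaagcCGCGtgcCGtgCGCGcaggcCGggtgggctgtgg
Ikzf1 promoter 2: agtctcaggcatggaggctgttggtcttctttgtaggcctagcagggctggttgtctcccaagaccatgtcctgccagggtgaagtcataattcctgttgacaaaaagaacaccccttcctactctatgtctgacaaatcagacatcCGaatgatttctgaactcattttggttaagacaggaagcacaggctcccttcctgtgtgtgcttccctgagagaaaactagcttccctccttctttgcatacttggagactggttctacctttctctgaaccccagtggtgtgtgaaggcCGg

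The first Ikzf1 promoter held 52 CpG dinucleotides in 300 bases and was 81.3% G and C. The second held 2 CpG and was 49.0% G and C. Over the 32851 RefSeq promoters of the same length the medians were 7 CpG and 52.7%, and 99.4% of them had fewer CpG than the first and 14.1% fewer than the second. Ikzf1 thus has a CpG-dense start and a CpG-poor start. The letters TGGGAA (a core that Ikaros family proteins bind), CAGGTG (an E-box read by E proteins) and CCGGAA (a core of ETS factor sites) were searched on both strands. Neither promoter held an exact match to any of the 3, which occur in 25.6%, 20.2% and 14.9% of the promoters. The shorter strings GGGAA and GGAA, contained in the first and the last of these, do occur in the second promoter. They were not counted over all promoters, so a lack of Ikaros or ETS sites is not shown.

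Ikzf1 and Ikzf3 lay in chromatin with dense H3K4me1 that included broad regions, and Ikzf2 had 4 regions of 629 to 1862 bases in a stretch with no other. The Ikzf1 window held 28 regions (exact Poisson 95% interval 18.6 to 40.5), the Ikzf3 window 19 (11.4 to 29.7) and the Ikzf2 window 4 (1.09 to 10.2). These intervals cover counting error only and treat regions as independent, which neighbouring regions are not. Per 100 kb this was 10.0 regions at Ikzf1, 8.64 at Ikzf3 and 1.14 at Ikzf2, beside 1.88 over the genome (all chromosomes but Y, first to last region). Regions covered 36.7% of the Ikzf1 window (103 kb), 40.0% of the Ikzf3 window (88.0 kb) and 1.37% of the Ikzf2 window (4.78 kb). The covered share was 4.30% over the genome, 7.39% on chromosome 11 and 3.74% on chromosome 1.

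**Figure D1:**
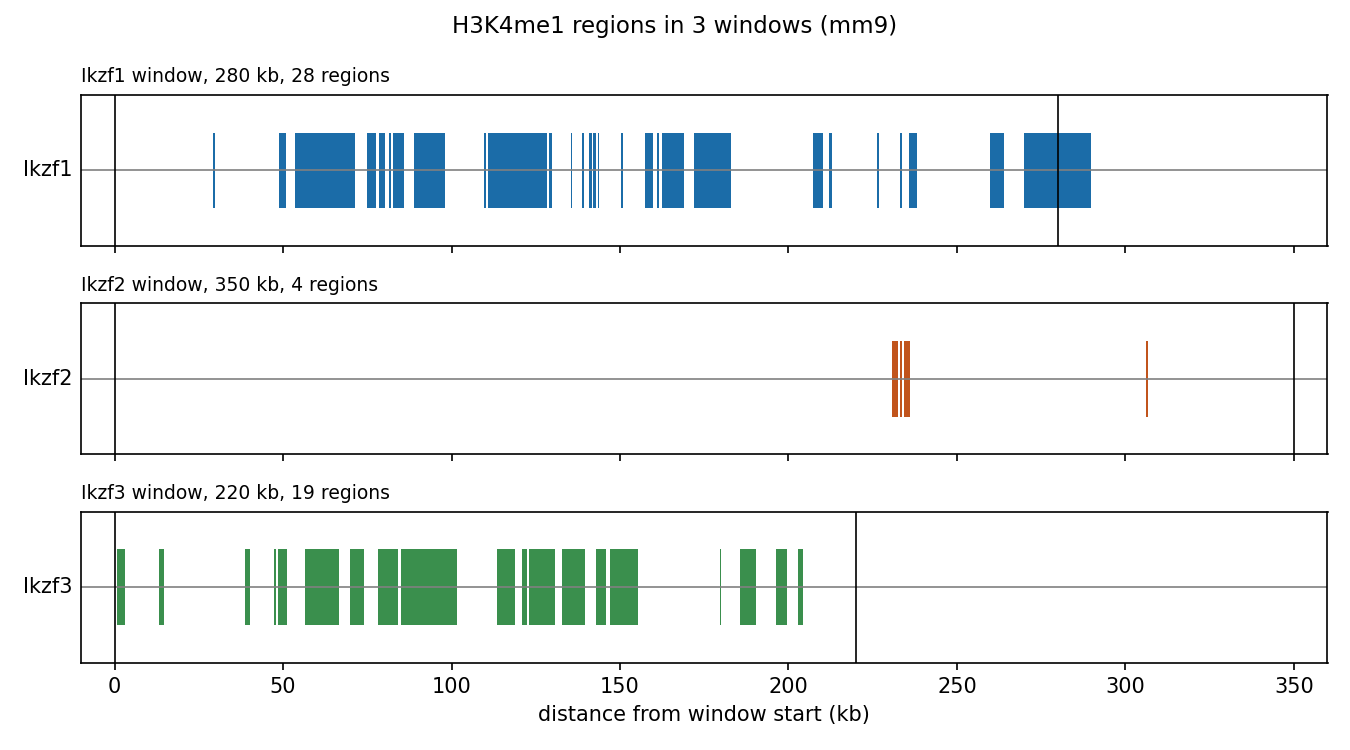
Map of the 3 windows, with distance from the window start in kb on the horizontal axis and each H3K4me1 region of the single library as a filled block; vertical lines mark the window edges. The Ikzf1 window (28 regions) and the Ikzf3 window (19) hold regions along most of the window with unmarked stretches between them (36.7% and 40.0% of bases covered), and the Ikzf2 window holds a group of 3 and 1 lone region.

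As a ratio of covered shares, Ikzf1 was 26.9 times Ikzf2 and Ikzf3 was 29.3 times Ikzf2. Ikzf3 and Ikzf1 were close, with a ratio of 1.09. That last order depends on the window edges: widening both windows by 20 kb at each end gave 0.967. The contrast with Ikzf2 comes from both number and length, since Ikzf1 had 8.75 times the regions per 100 kb of Ikzf2 and 3.36 times its mean region length. For Ikzf3 over Ikzf2 these ratios were 7.56 and 3.88. By median region length the ratio to Ikzf2 was only 1.23 for Ikzf1 and 2.95 for Ikzf3. The mean lengths count the whole of a region that crosses a window edge, and the covered shares do not.

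Set beside all stretches of its own length, the Ikzf1 window was covered more than 99.6% of the 9142 tiles of 280 kb that divide the genome. The tiles run from the first to the last region of each chromosome, so the windows, which were chosen around genes, are set beside gene-poor stretches too. The Ikzf3 window was covered more than 99.7% of the 11636 tiles of 220 kb. Only 33 and 32 tiles were covered at least as much. The Ikzf2 window was covered more than 51.4% of 7309 tiles of 350 kb, whose median was 1.2% and of which 35.8% had no covered base. Ikzf2 was thus near the middle of the genome, and the other two paralogues were near its top.

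The stretches around the windows differed as well. The 280 kb before the Ikzf1 window were covered to 13.7% and the 280 kb after it to 6.24%, against 36.7% inside. The 220 kb before the Ikzf3 window were covered to 13.8%, and the 220 kb after it to 28.0%, against 40.0% inside. The last Ikzf3 member was followed by 57.4 kb without a region, of which 41.6 kb lie in that flank, so its regions lie further on. The last Ikzf1 member crosses the window's end. Its part outside makes up 55.7% of the covered bases of the flank after that window, and so enters the flank mean used below. Both 350 kb flanks of the Ikzf2 window held no region. Dividing each window by the mean of its flanks reversed the order of Ikzf3 and Ikzf1, at a ratio of 0.521. In the GRCm38.p6 gene table the nearest protein-coding neighbours are 4930512M02Rik and Fignl1 for Ikzf1, Grb7 and Zpbp2 for Ikzf3, and Erbb4 and Spag16 for Ikzf2. Which regions of a window belong to these neighbours was not analysed here.

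**Figure D2:**
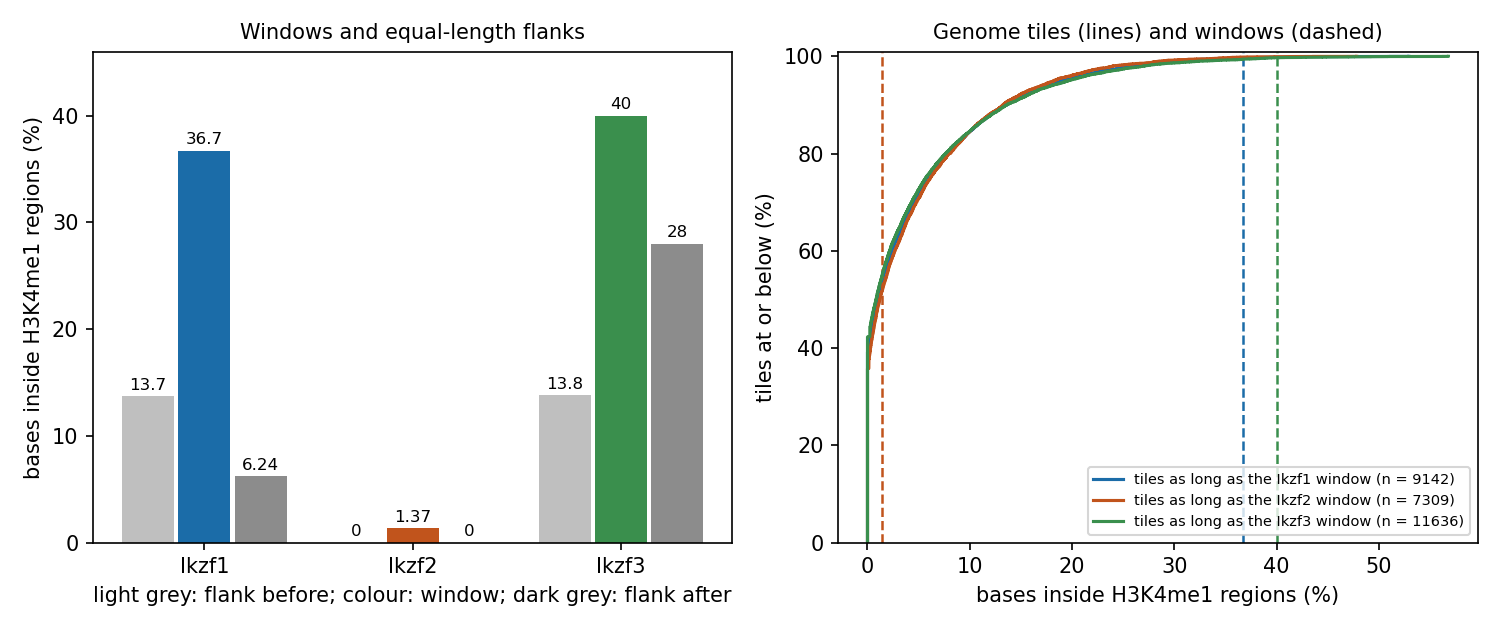
Left, percent of bases inside H3K4me1 regions in each window and in the equal-length stretch before and after it (1 library, no error bars). Right, percent of genome tiles of each window's length at or below a given percent covered (lines), with the windows as dashed lines: Ikzf1 at 36.7% and Ikzf3 at 40.0% lie at the far end, and Ikzf2 at 1.37% near the middle.

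The Ikzf1 window was built from a few very broad regions among many short ones. Its 5 longest regions measured 19.7, 17.7, 17.4, 11 and 9.45 kb, and its shortest 501 bases, the floor set by the caller's peak size. In the whole list 134 regions were longer than the first of these and 194 longer than the second. Regions of at least 5 kb numbered 6 of 28 (21.4%, Wilson 95% interval 10.2 to 39.5%), beside 8.92% of all regions. They held 70.1% of the window's covered bases, beside 34.0% over the genome and 38.0% on chromosome 11. At least 10 kb was reached by 4 regions here, 2 at Ikzf3 and none at Ikzf2, beside 2.15% of all regions. At the same time 14 of 28 (50%, interval 32.6 to 67.4%) were under 1000 bases, beside 32.4% of all regions. The share at the floor, 5 of 28, was 17.9%, close to the 14.3% of the whole list. The median length of 1412 bases was near that of all regions, 1497 bases, so the covered share of Ikzf1 came mainly from its few broad regions.

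The first Ikzf1 region, 646 bases long from 11529084 to 11529729, stood alone after 29.1 kb without any, the longest region-free stretch inside the window. Stitching members over gaps of up to 10 kb then gave a cluster of 7 regions from 11548718 to 11598210, which covered 37.8 of its 49.5 kb. It contains the 17.7 kb region (11553572 to 11571270), then 4 regions of 633 to 3214 bases with gaps of 666 to 1009 bases between them, and the 9.45 kb region (11588762 to 11598210). After a gap of 11.4 kb came the largest cluster, with 13 regions from 11609609 to 11683010 that covered 43.0 of 73.4 kb. Its ends are broad and its middle is finely divided. It opens with a 501-base region and the 17.4 kb region (11610924 to 11628364), and closes with regions of 6.36 kb (11662580 to 11668939) and 11 kb (11672014 to 11683010). Between 11628959 and 11650833 it holds 7 regions of 501 to 867 bases.

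Among the 22835 such clusters of the genome, 165 covered at least as many bases as the largest of Ikzf1 and 232 at least as many as its neighbour. The median cluster covered 2.48 kb, and 53.0% were a single region. Beyond 11683010 the Ikzf1 window thinned out. A gap of 24.4 kb was followed by 5 regions of 501 to 2887 bases between 11707395 and 11738080. Then, after 21.6 kb, came a 4.26 kb region and the 19.7 kb region (11770018 to 11789736). This longest and last member crosses the window's end and has 9983 of its bases inside. With its whole length the window would be covered to 40.1%.

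The Ikzf3 window reached a similar coverage with more evenly broad regions, 8.64 per 100 kb against 10.0 at Ikzf1. That difference in number depends on how finely regions were split. After joining regions less than 2.5 kb apart, 13 were left in the 220 kb of Ikzf3 and 16 in the 280 kb of Ikzf1. Its 5 longest measured 16.5, 10.2, 8.20, 7.82 and 7.11 kb. Regions of at least 5 kb were 7 of 19 (36.8%, Wilson 95% interval 19.1 to 59.0%, beside 8.92% of all regions) and held 69.2% of the covered bases, a share that was 73.4% in the stretch after the window. Only 2 of 19 (10.5%, interval 2.94 to 31.4%) were under 1000 bases, beside 32.4% of all regions, and 1 was at the floor. In the stretch before the window 2 of 13 (15.4%) were under 1000 bases, and in the stretch after it 6 of 14 (42.9%). Regions of at least 5 kb were 15.4% of those before and 28.6% of those after. In the window the median length was 3380 bases, 2.39 times that of Ikzf1. The mean length, 4634 bases, was only 1.15 times that of Ikzf1. The median and the share under 1000 bases also count each split region separately, and they were not recomputed after joining. At Ikzf1 the share under 1000 bases was 50% (interval 32.6 to 67.4%). For the share of at least 5 kb the intervals of the 2 windows overlapped. These intervals treat neighbouring regions as independent and come from 1 library, so the difference was not tested over replicates.

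The first Ikzf3 region lies at the window's start (98260621 to 98262986, 2.37 kb), 5.24 kb after a region outside the window, to which the 10 kb limit would stitch it. A lone region of 1473 bases follows. A cluster of 7 regions from 98298822 to 98361614 covered 41.3 of 62.8 kb and was the largest of the window. It contains the 10.2 kb region (98316454 to 98326607) and ends in the 16.5 kb region (98345094 to 98361614), with regions of 4.05 and 5.97 kb between them. After 12.0 kb, a cluster of 6 regions from 98373638 to 98415368 covered 32.8 of 41.7 kb. It holds the 7.82 kb (98382983 to 98390798), 7.11 kb (98392650 to 98399761) and 8.20 kb (98407169 to 98415368) regions. In the genome, 188 and 329 clusters covered at least as many bases as these. Next came the longest region-free stretch of the window, 24.2 kb from 98415369 to 98439566. Then 4 regions of 501 to 4931 bases ran to the last, which is 1365 bases long (98462894 to 98464258).

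Ikzf1 also held a cluster at the window's end that covered 24.0 of its 30.0 kb, in part outside the window. In both heavily marked windows the 2 largest clusters were neighbours, separated by a gap of 11.4 kb at Ikzf1 and 12.0 kb at Ikzf3. Both gaps are just above the stitching limit. With a limit of 20 kb the largest cluster covered 81.4 kb at Ikzf1 and 74.0 kb at Ikzf3. The mark was also spread along both windows in bins of 20 kb: 13 of 14 bins at Ikzf1 and 11 of 11 at Ikzf3 held some covered base, beside 23.9% of such tiles over the genome. Bins with at least 10 kb covered were 5 of 14 and 4 of 11, beside 1.53% of tiles. In the stretch after Ikzf3, 9 of 11 bins held some covered base and 3 had at least 10 kb covered. Bins with some covered base were 7 of 11 before Ikzf3, 6 of 14 before Ikzf1 and 5 of 14 after it. Some such bins held little, down to 310 covered bases in the Ikzf1 window and 434 in the Ikzf3 window. The most covered bin reached 77.8% at Ikzf1 and 94.7% at Ikzf3.

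The Ikzf2 window held 4 regions, and 3 of them form one tight group. They are 1862 bases (69730778 to 69732639), 629 bases (69733168 to 69733796) and 1569 bases (69734400 to 69735968) long, and the gaps between them are 528 and 603 bases. The group covers 4.06 of its 5.19 kb. A region of 719 bases (69806146 to 69806864) lies 70.2 kb further on. None reached 5 kb (0 of 4, Wilson upper bound 49.0%), beside 8.92% of all regions, and 2 were under 1000 bases, beside 32.4%. With 4 regions these counts are too few to compare. Marked bins of 20 kb were 2 of 18, beside 23.9% of such tiles over the genome. The covered bases of the Ikzf2 group were matched or exceeded by 7126 of the 22835 clusters, so it is an ordinary cluster in size.

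**Figure D3:**
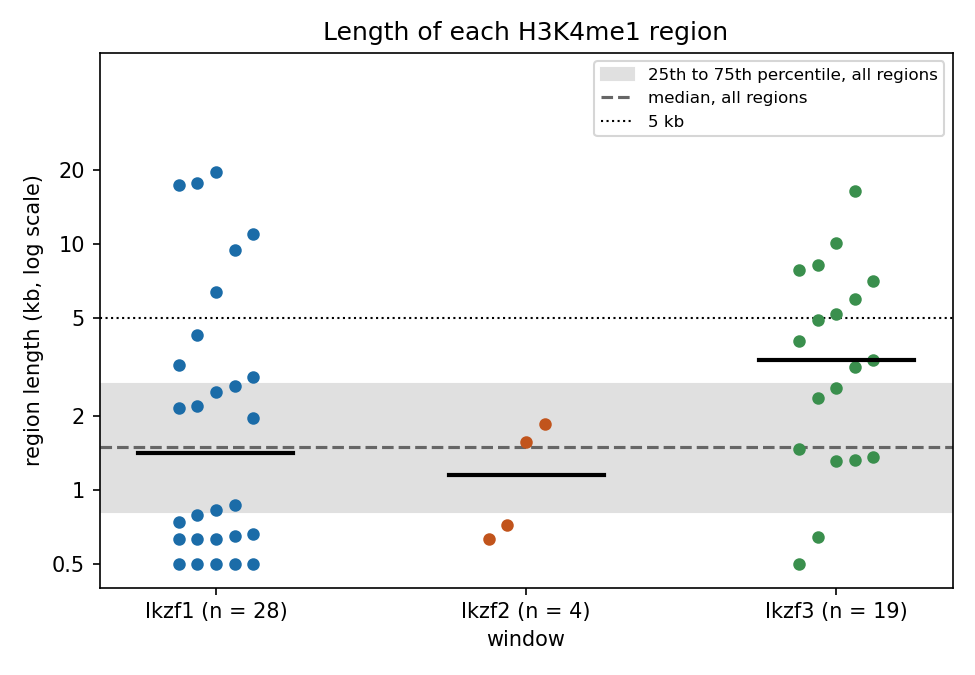
Length in kb (log scale) of every H3K4me1 region, by window, with black bars at the window medians; the grey band is the 25th to 75th percentile of all regions, 813 to 2694 bases. Ikzf1 splits into many regions under 1 kb and 6 above 5 kb, Ikzf3 lies mostly above the band, and all 4 Ikzf2 regions are under 2 kb.

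The Ikzf2 regions were isolated. The region before them ends 2.64 Mb earlier, a gap exceeded by only 99 of the 48108 gaps between neighbours. The next region after them starts 1.24 Mb later, a gap exceeded by 314. Between 67086441 and 71043291, a stretch of 3.96 Mb on chromosome 1, these 4 regions were the only ones called. By contrast the region-free gaps on either side of the Ikzf1 members were 40.9 and 41.5 kb, and those beside Ikzf3 were 5.24 and 57.4 kb. No call in a stretch means that no peak passed the caller's threshold of 26 tags in 500 bases and 4-fold over input. It does not show that the mark is absent, and unmappable sequence was not analysed here.

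Gaps of at most 2.5 kb were 12 of 27 (44.4%) at Ikzf1, beside 26.0% over the genome and 28.5% on chromosome 11. At Ikzf3 they were 6 of 18 (33.3%), near that background, and the 3 gaps of Ikzf2, 2 of them this short, are too few to compare. No interval was computed for these shares, and whether Ikzf1 differs from the background was not tested. The shortest gap was 528 bases at Ikzf1 and at Ikzf2 and 630 bases at Ikzf3. The median gap was 2.73 kb at Ikzf1, 3.70 kb at Ikzf3 and 8.87 kb over the genome. Joining regions less than 2.5 kb apart left 16 regions at Ikzf1, 13 at Ikzf3 and 2 at Ikzf2, from 28, 19 and 4.

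Signal per region was not used here, and beside position and length the file gives each region a place in the list and a number in its name. The header does not state what either follows. Place in the list followed length closely (Spearman -0.973 over 48130 regions of 1 library, a description). Among the 466 regions of chromosome 11 at the floor length, which do not differ in length, place still followed the number in the region's name (Spearman 0.957). Length alone therefore does not set the order. Since the meaning of that number is not stated, whether a measured quantity does was not tested. The 17.7 kb region of Ikzf1 stood at place 131 and the 16.5 kb region of Ikzf3 at place 269. The 17.4 kb region of Ikzf1, singled out after its place was seen, stood at place 1125. All 131 other regions within 10% of its length came earlier, with a median place of 236. The 4.26 kb region of Ikzf1, also picked afterwards, stood at place 11279, against a median of 5990 for regions of like length. Other members lay off the trend in both directions. For the 501-base region of Ikzf3, at place 47990, 2.0% of like-length regions came later. For the 1957-base region of Ikzf1, at place 12481, this was 95.6%. At Ikzf2 the 1862-base region stood at place 25740, and 8.1% of the regions of like length came later. The 629-base region between its neighbours stood at place 36964, and 85.2% of like-length regions came later. For the 1569-base region, at place 24359, this share was 38.3%, and for the 719-base region, at place 41963, it was 10.1%.

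**Figure D4:**
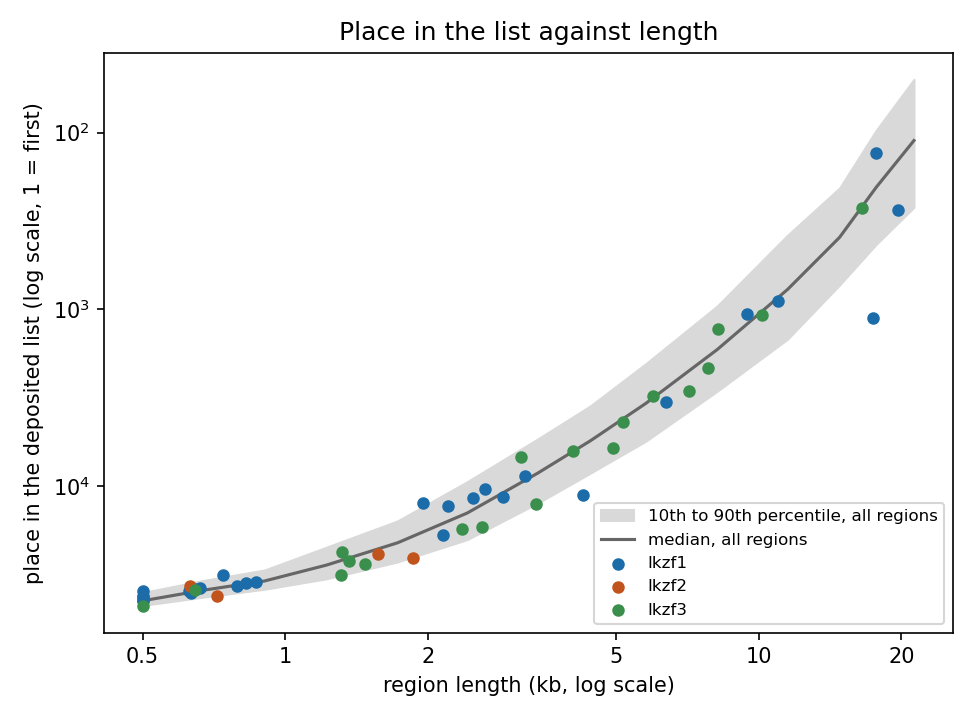
Place in the deposited list (log scale, 1 is first) against region length in kb (log scale) for the 51 regions, with the median and the 10th to 90th percentile of all regions in bins of length. Most members follow the trend of all regions. Among those off it, the 17.4 kb and 4.26 kb regions of Ikzf1 lie below it, at places 1125 and 11279. So does the 501-base region of Ikzf3, at place 47990. The 1957-base and 740-base regions of Ikzf1 lie above it, at places 12481 and 31820.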

How the data were processed

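ChIP-seq regions of 1 H3K4me1 library, called by the authors against 1 input library, were used. The submitters' processing notes name Bowtie 0.12.9, HOMER 4.7 and the build mm9. Per the file headers, HOMER's findPeaks (histone style) stitched 500-base peaks into regions and asked for 26 tags where 12.582 were expected and 4-fold over input. Per the file headers, the H3K4me1 library held 50945360 tags, 30.8% of them in peaks; the input depth is not given in the sources used here. The score column deposited by the authors is 1 for every region, so no tag count per region entered. Tags amplified by PCR without molecular identifiers are not independent molecules.

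Windows came from the rule; a region belongs to a window if 1 base overlaps, and covered bases were clipped at the edges. Positions count from 1. Tiles and gaps leave out chromosome Y. The members and lists were chosen with earlier results of these data known. Regions named one by one are, per window, the 5 longest, the first, the last, the largest cluster and the longest region-free stretch, and every region where a window holds 8 or fewer; others that are printed were chosen after their values were seen. Alternatives changed the length minimum, window edges, clipping, joining, stitching gap, broad length and tile grid. With 1 library per group there is no test. Coverage, tiling and stitching were tested on simulated data. Python 3.11.15, numpy 2.4.6, pandas 2.3.3, scipy 1.17.1, statsmodels 0.14.6 and matplotlib 3.10.9 were used.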

Additional observations from a re-analysis of the deposited data

How the results depend on the processing

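Of 52 alternatives, 43 left the value close to the one reported. For counts and cluster sizes this means within 1.5 times, and for shares and ratios within a rough 95% interval that treats each kb of window, each tile or each region as 1 independent draw. Both reversals of a reported ratio concern the covered shares of Ikzf3 over Ikzf1 (1.09), which gave 0.967 in windows widened by 20 kb and 0.521 after dividing by the flanks. Keeping regions of at least 1000 bases left 14 at Ikzf1 (of 28) and 2 at Ikzf2 (of 4), by construction. Joining regions under 2.5 kb apart left 16 and 2. A stitching gap of 20 kb raised the covered bases of the largest cluster from 43.0 to 81.4 kb at Ikzf1 and from 41.3 to 74.0 kb at Ikzf3, because it bridges the gap between their 2 largest clusters. Counting regions as broad from 10000 bases lowered the Ikzf3 share from 36.8 to 10.5% and the Ikzf1 share from 21.4 to 14.3%. The order of the broad shares of Ikzf3 and Ikzf1 thus depends on the length chosen. Ikzf1 over Ikzf2 ranged from 24 to 34.2 and Ikzf3 over Ikzf2 from 28.1 to 40.3. The flank alternative gave no value for Ikzf2, whose flanks held no region. No paired analysis was possible because each group has 1 sample. How close each region came to the calling threshold cannot be read from positions alone.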
